A study of Rattus norvegicus with 24 samples.

Results

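The dorsal striatum of rats that had taken no drug was described from 12 of the 24 arrays of the series, those titled as yoked saline. The choice used the titles only and no measured value. All rats were male Sprague-Dawley animals of about 375 ± 50 g, kept on a reversed cycle with 12 h of light, and the labels give no age. The 12 saline rats were yoked controls, animals that receive saline while a partner works for drug, and the labels give them no time of death. The other 12 arrays came from rats that had worked for methamphetamine (METH), each injection giving 0.1 mg/kg, over 8 days of 15 h sessions, and were killed 2 h (6 rats) or 24 h (6 rats) after the last session. Each array was taken as 1 animal, since the labels describe rats killed in separate groups.

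Each RatRef-12 slide carries 12 arrays, and the saline arrays lay on 3 slides, with 6 on slide 1, 3 on slide 2 and 3 on slide 3. Slide 1 held the METH 2 h rats as well, and slides 2 and 3 held the METH 24 h rats. The labels carry no replicate numbers, so arrays are named by slide and by their order of listing (slide 1 replicates 1 to 6, slide 2 replicates 1 to 3, slide 3 replicates 4 to 6). Saline rats of slide 1 were not tested against those of slides 2 and 3, because slide and set cannot be told apart. The number of arrays limits the precision.

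Of the 22523 probes, 8208 to 9428 per array were detected (detection p under 0.05) on the saline arrays of slide 1 and 9375 to 10306 on those of slides 2 and 3. In all, 6838 probes were detected on every one of the 12 arrays and 10747 on none. Slide 1 replicate 4 stood apart. Its 95th percentile of intensity was 380.7, against 408.9 to 1335 on the other saline arrays, it had the fewest detected probes, and its mean correlation with the other saline arrays of the slide was 0.963, against 0.970 to 0.975 for those. Calls that rest on that array are given with and without it.

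Most neurons of the striatum are GABA-releasing projection neurons. Those of the direct pathway carry the dopamine D1 receptor and the peptides dynorphin and substance P, and those of the indirect pathway carry the D2 receptor and enkephalin. Dopamine itself is made by neurons of the midbrain, whose axons reach the striatum while their cell bodies, with most of their mRNA, lie elsewhere. Glia and interneurons make up the rest of the tissue, which is bordered by cerebral cortex, by the ventricle with its choroid plexus, and by white matter. In bulk tissue, fewer cells of a type and less RNA per cell cannot be told apart.

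The 5 marker genes that name the tissue were detected on all 12 arrays, as the tissue label calls for. Penk, the precursor of the enkephalins of the indirect pathway, was the brightest of them. Its background-subtracted signal ran from 2346 to 10280 on slide 1 (median 5626, n = 6) and from 3210 to 8282 on slides 2 and 3 (median 4591, n = 6). Among 13337 named genes, each represented by its brightest probe, Penk ranked 53 on slide 1, 32 on slide 2 and 37 on slide 3. Signal depends on the probe as well as on the transcript, so these are ranks of signal and not of transcript number.

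Tac1, the precursor of substance P in the direct pathway, ranked 151, 132 and 155 on slides 1, 2 and 3. Its signal was 1286 to 6481 on slide 1 (median 2932) and 1629 to 4750 on slides 2 and 3 (median 2350, n = 6 each). The receptor genes were dimmer. Drd1, the dopamine D1 receptor, ranked 628, 584 and 632, with signals of 473.0 to 1611 and 546.9 to 1280. Drd2, the dopamine D2 receptor, ranked 1341, 1863 and 1828, with 281.9 to 459.0 and 195.2 to 385.3. Pdyn, the dynorphin precursor, ranked 2338, 2596 and 2379, with 93.3 to 382.4 and 128.7 to 320.9. Thus the order Penk, Tac1, Drd1, Drd2, Pdyn held on each of the 3 slides, and the plot of marker signals shows that it also held on each array.

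**Figure D1:**
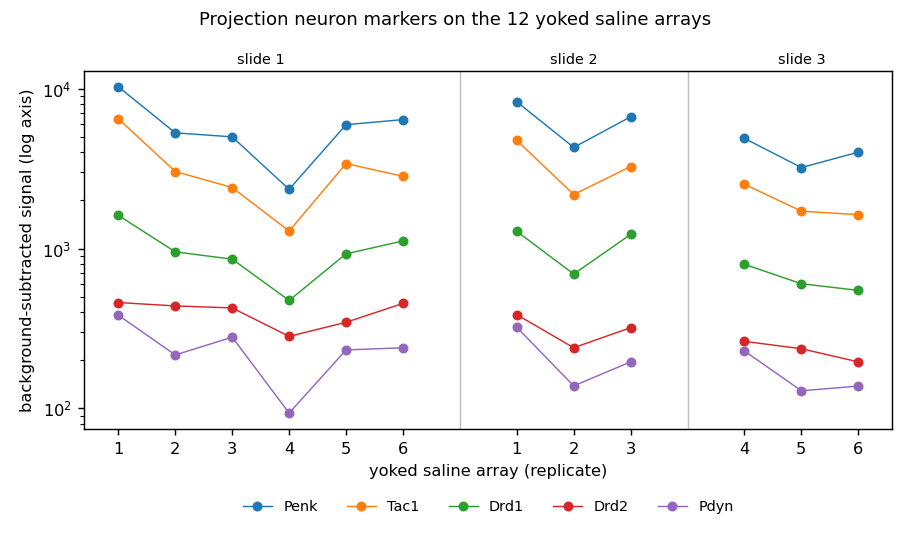
Background-subtracted signal (log axis) of 5 projection neuron markers on the 12 yoked saline arrays, grouped by slide; points are single arrays, and the thin lines join 1 gene within a slide and stand for no order. Penk runs from 2346 to 10280 and Pdyn from 93.3 to 382.4, and the lines do not cross; slide 1 replicate 4, the dimmest array, is low in all 5 genes.

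The raw signals of all 5 markers were lowest on slide 1 on the dimmest array, replicate 4. After normalization Drd2 was highest there (9.09) and lowest on the brightest array, replicate 1 (8.06). On the normalized log2 scale, Penk was 12.36 ± 0.17 on slide 1 and 12.57 ± 0.17 on slides 2 and 3 (SD within slides, n = 6 each). The within-slide SD was 0.19 and 0.18 for Tac1, 0.12 and 0.16 for Drd1, 0.26 and 0.18 for Pdyn, and 0.39 and 0.17 for Drd2. The median over the 5130 genes detected on all 12 arrays was 0.23 on slide 1 and 0.16 on slides 2 and 3. None of the 5 markers varied between animals beyond the spread fitted for probes of their level (limma, adjusted p 0.745 or higher in both sets). In simulated data, the test found 43% of probes of 3-fold raised SD on slide 1 and 11% on slides 2 and 3. A moderate excess of spread could thus be missed.

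The promoters of Tac1 and Pdyn, the peptide markers of the direct pathway, are shown because the series title concerns CREB, a factor that binds the cyclic AMP response element. Each is 300 bases, from 250 before the start of the gene to 50 after it, taken from RefSeq (GRCr8). They lie at chr4:36645333-36645632 on the plus strand for Tac1 and chr3:137366454-137366753 on the minus strand for Pdyn. Capitals mark matches, on either strand, to the response element TGACGTCA, its half-site TGACG, which reads CGTCA on the other strand, or the TATA box TATAAA. The half-site is part of the full element.
Tac1: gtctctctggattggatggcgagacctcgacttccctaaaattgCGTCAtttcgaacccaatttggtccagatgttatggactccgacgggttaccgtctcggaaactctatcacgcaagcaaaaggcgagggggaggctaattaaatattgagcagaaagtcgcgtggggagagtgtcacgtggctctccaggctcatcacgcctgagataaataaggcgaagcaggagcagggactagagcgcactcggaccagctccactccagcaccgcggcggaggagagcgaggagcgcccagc
Pdyn: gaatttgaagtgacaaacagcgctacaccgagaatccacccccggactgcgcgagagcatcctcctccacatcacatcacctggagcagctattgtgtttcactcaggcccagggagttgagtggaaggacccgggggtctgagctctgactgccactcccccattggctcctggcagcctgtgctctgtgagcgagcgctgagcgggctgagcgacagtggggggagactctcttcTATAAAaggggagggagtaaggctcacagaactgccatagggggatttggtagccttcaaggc
The Tac1 window held the half-site, starting 206 bases before the gene start, and the Pdyn window held TATAAA, starting 13 bases before it. Of 33469 rat promoters of the same length, 1.83% hold the full element, 21.2% the half-site and 14.2% TATAAA. These matches describe letters and not binding. The windows of Drd1 and Drd2 held 0 matches, and no window was used for Penk.

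The brightest genes were much alike on the 3 slides, with exceptions. Sv2b, a synaptic vesicle gene, had a median signal of 26204 on slide 1 and 5338 on slides 2 and 3. Of the 100 brightest named genes of each slide, 74 were shared by all 3, and gene ranks had a Spearman correlation of 0.965 to 0.985 between slides (13337 genes measured with the same probes on each slide, given as a description). The 100 brightest probes held 18.2% to 22.0% of the summed positive signal of an array. Of the 70 probes among the brightest 100 of every slide, 19 are unnamed here.

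Pcp4, a calmodulin-binding protein rich in projection neurons, had the best mean rank, at 5, 1 and 1 on slides 1, 2 and 3. Its signal was 6243 to 23340 on slide 1 and 11094 to 20068 on slides 2 and 3. Other neuronal genes among the 20 brightest were Ppp1r1b, which encodes DARPP-32, the phosphatase inhibitor of dopamine-responsive neurons (ranks 15, 23 and 20), Ppp3ca, a catalytic subunit of calcineurin (7, 15 and 17), and Nrgn, the calmodulin-binding protein neurogranin (3, 10 and 9). Calm2 encodes calmodulin itself (4, 7 and 7). Cx3cl1, the neuronal chemokine fractalkine (12, 14 and 15), and Snrpn, an imprinted splicing gene of neurons (13, 17 and 23), were also there.

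Glial genes among the 20 were Apoe, the lipid carrier made by astrocytes (8, 3 and 4), Cst3, a protease inhibitor of microglia and other cells (27, 6 and 6), Tf, the iron carrier transferrin of oligodendrocytes (17, 18 and 21), and Scd2, a fatty acid desaturase (26, 19 and 16). The remaining 9 serve most cells. They were the iron store subunit Fth1, the respiratory chain subunit Cox6a1, the tubulins Tuba1b and Tuba1a, the prolyl isomerase Ppia, the ribosomal protein Rpl23a, the elongation factor Eef1a1, the selenoprotein Selenow and the proton pump subunit Atp6v0c. Several of these, such as Fth1, Ppia, Rpl23a, Eef1a1 and the tubulins, have near-identical copies, so their signals may not stem from 1 gene.

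Cell type lists were used to describe the whole homogenates, and no cell was classified. Their members were chosen with earlier results of these data known. Over all 13337 named genes, 5130 (38.5%) were detected on all 12 arrays and 5156 on none, and the median gene lay at the 58.6th to 59.1st percentile of signal among all probes of an array. Of 26 genes of striatal projection neurons on the array, 25 were detected on all 12, and the median gene lay at the 95.4th to 96.3rd percentile. The exception was the cannabinoid receptor gene Cnr1, detected on 11. After Pcp4 and Ppp1r1b, the brightest members included Rgs9, a brake on dopamine receptor signalling (ranks 11, 28 and 33), and Gad1, a GABA-synthesizing enzyme (60, 86 and 100). Of the direct pathway list 6 of 7 were detected on all 12, and of the indirect pathway list 3 of 5, Penk, Drd2 and the adenosine receptor gene Adora2a (ranks 34, 59 and 50). Chrm4, a muscarinic receptor of the direct pathway, ranked 2268, 1701 and 1776. Isl1 was detected on 9 arrays, Grik3 on 1 and Ptprm on none.

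Glial lists were detected as well. All 16 astrocyte genes were detected on all 12 arrays (median at the 98.0th to 98.7th percentile), with Apoe and Ndrg2 the brightest (Ndrg2 ranks 43, 48 and 45). Of the oligodendrocyte genes 13 of 16 were detected on all 12, led by Tf and the myelin gene Mal (139, 141 and 163), and of the microglia genes 11 of 15, led by Cst3 and the protease gene Ctss (243, 486 and 390). Of oligodendrocyte precursor genes 4 of 7 were detected on all 12, with Bcas1 and Pdgfra the brightest.

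Interneuron genes were detected less fully, with 4 of 15 on all 12 arrays and 2 on none. Their median gene lay at the 67.9th to 71.5th percentile, above that of all genes. Those detected on all 12 were the peptide genes Npy (ranks 1035, 551 and 535) and Sst (1340, 600 and 626), and the potassium channel genes Kcnc2 and Kcnc1. The cholinergic genes Slc5a7 and Slc18a3 were detected on 10 and 11 arrays and Pvalb on 8. Of endothelial and pericyte genes 4 of 13 were detected on all 12, led by Cldn5 and Vwf.

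Most genes of midbrain dopamine neurons and of other organs were detected on none of the 12 arrays, against 5156 of all 13337 named genes. Of 9 midbrain dopamine genes, 7 were detected on none of the 12 arrays, among them all 4 of dopamine synthesis and transport, Th, Ddc, Slc6a3 and Slc18a2. Aldh1a1 was detected on all 12 and Nr4a2 on 10. Of 8 thalamic and pallidal genes only Synpo2 was detected on all 12, but only 3 were detected on none. Calb2 was detected on 11 and Prkcd on 10. The median gene of that list lay at the 54.3rd to 59.6th percentile, against the 58.6th to 59.1st for all genes. Of 22 genes of other organs, 16 were detected on none, and the cardiac muscle genes Myh7 and Tnni3 were detected on all 12. A probe that is not detected gives no level, and a detected probe may bind other transcripts. Of 14 cortical excitatory neuron genes 6 were detected on all 12 (median at the 63.4th to 66.8th percentile, above that of all genes), of 16 choroid plexus and ependyma genes 3 and of 12 blood genes 3, the haemoglobins Hba-a1, Hbb and Hbb-b1, which are near-identical copies in part.

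**Figure D2:**
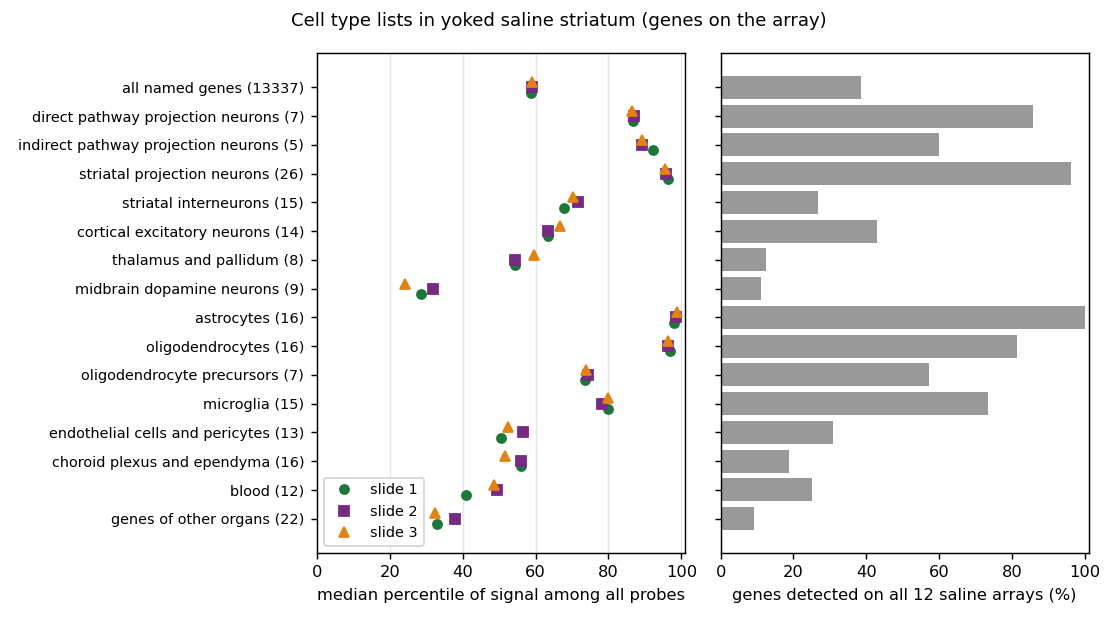
Left, median percentile of signal of each cell type list among all probes of an array, by slide; right, percentage of its genes detected on all 12 saline arrays. The number of genes on the array stands beside each name. The striatal projection neuron, astrocyte and oligodendrocyte lists lie above 95 on every slide. The direct and indirect pathway lists lie between 86.5 and 92.1, and midbrain dopamine genes between 24.3 and 31.8.

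Function lists were counted in the same way, against the 38.5% of all genes detected on all 12 arrays. All 14 glycolysis genes, 46 of 50 oxidative phosphorylation subunits and 55 of 63 cytosolic ribosomal protein genes and their translation partners were detected on all 12 arrays, and 15 of the ribosomal list were among the 74 shared brightest genes. Of 29 dopamine signalling genes 24 were detected on all 12, led by Calm2 and Ppp3ca. Th, Slc6a3 and the receptor genes Drd3, Drd4 and Drd5 were detected on none. Of 25 neuropeptide precursors and processing genes, 14 were detected on all 12, led by Penk and Pcsk1n (121, 95 and 108), and Crh on none.

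Among receptors, 9 of 18 glutamate receptor genes were detected on all 12, led by Gria2 (210, 239 and 299) and Grin1 (293, 211 and 270). The count was 7 of 13 for GABA receptor genes, led by Gabrb1 and Gabbr2, and 5 of 22 for acetylcholine, serotonin, opioid and cannabinoid receptor genes and adenosine receptors, led by Adora2a and Chrm4. Of 26 immediate early genes, which neurons switch on with activity, 15 were detected on all 12, with Dusp1 (507, 1183 and 1037) and Egr1 (783, 995 and 1125) the brightest. Egr3, Nr4a1, Npas4 and Atf3 were detected on none. Of 20 synaptic vesicle genes 13 were detected on all 12, of 26 cytoskeletal genes 23, of 18 heat shock genes 14, of 13 glucocorticoid-responsive genes 10 and of 13 clock genes 6. The list of antigen presentation gave 6 of 21 and that of the interferon response 4 of 19.

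How much a gene differed between rats was measured within slides only. Of the 5130 genes, the 100 most variable of slide 1 (SD of 0.52 or more) and the 100 most variable of slides 2 and 3 (SD of 0.42 or more) shared 27. A list of 100 is 1.95% of the genes. Across genes the SDs of the sets had a Spearman correlation of 0.261, a description over probes that share their level and design.

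**Figure D3:**
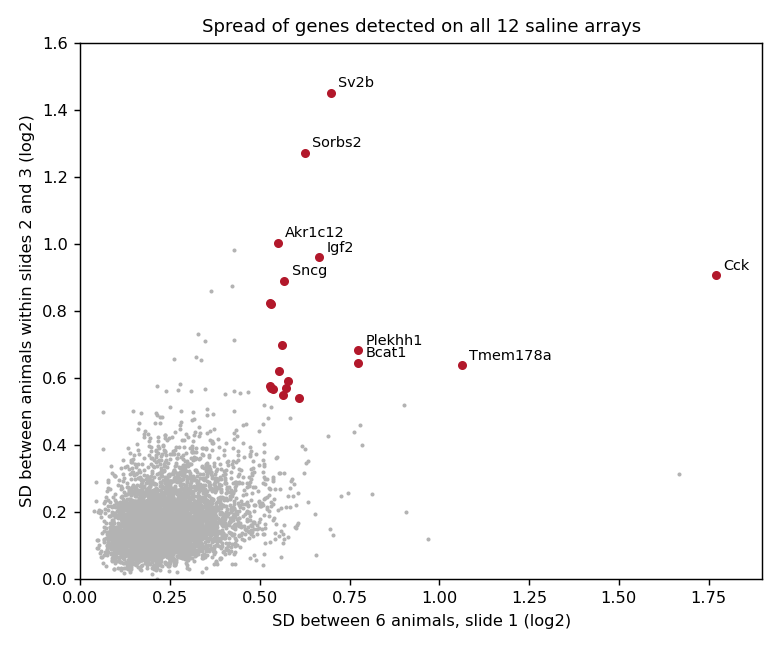
SD between animals of normalized log2 signal on slide 1 (6 arrays) against the SD within slides 2 and 3 (3 arrays each), for 5130 genes detected on all 12 saline arrays; red points are the 20 genes of the largest smaller SD. Cck lies far to the right, at 1.77 and 0.91, and Sv2b at the top, at 0.70 and 1.45.

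By the smaller of both SDs, the 20 most variable genes were Cck, Sv2b, Plekhh1, Igf2, Bcat1, Tmem178a, Sorbs2, Dnmt3a, Sgk1, Sncg, Spock2, Gabbr1, Akr1c12, Bhlhe22, Sstr2, Slc5a3, Nrep, Ube2b, Tsn and RT1-A2. The 10 genes of smallest larger SD were Exoc7, Ttc19, Hp1bp3, Blcap, Slc25a17, Arfrp1, Dctn2, Ghitm, Rnf114 and Safb, each at 0.081 or less in both sets. The reference genes Rplp0 (0.11 and 0.11), Actb (0.15 and 0.22) and Gapdh (0.28 and 0.15) varied more than these.

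A test asked which probes varied between animals more than other probes of the same level (limma, robust empirical Bayes prior, Benjamini-Hochberg). On slide 1, 21 of 7024 probes passed (0.299%), 13 of them named. On slides 2 and 3, 20 of 8385 passed (0.239%), 15 named. In all 4 probes passed in both sets, which is 19.0% of the first list and 20% of the second. They were Cck, Sv2b, Igf2 and an unnamed probe. Of the 21 probes of slide 1, 16 had an SD over its prior in the upper 5% of probes on slides 2 and 3. In METH rats 4 of 7484 probes passed at 2 h (0.0534%) and 4 of 8276 at 24 h (0.0483%), and 7 of these 8 had passed in a saline set. The prior had 18.2 and 10.3 degrees of freedom in the saline sets and 8.55 and 5.89 in the METH sets, so a given excess of spread had a higher p in METH rats. The median SD of the probes tested was 0.23 and 0.16 in the saline sets and 0.23 and 0.18 in the METH sets, and whether the groups differ in spread was not tested. Single arrays moved these counts. On slide 1, 13 passed without replicate 2, and 22 without replicate 4, 16 of which were among the 21. The count for slides 2 and 3 was 9 without replicate 6 and 13 without replicate 5.

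Cck, which encodes the neuropeptide cholecystokinin and is strongly expressed in cortex, had the largest SD of the 5130 genes on slide 1. Its log2 level was 10.08, 6.54, 9.11, 10.75, 6.57 and 8.07 on replicates 1 to 6 of slide 1 (SD 1.77, 7.88 times the prior, adjusted p = 2.07e-07). Replicates 1 and 4 were high and replicates 2 and 5 low. On slide 2 it was 10.54, 10.41 and 8.98 and on slide 3 it was 10.95, 9.09 and 10.31 (SD 0.91, adjusted p = 0.00649). Tmem178a, a transmembrane protein gene, passed on slide 1 with 8.06, 6.35, 8.50, 9.18, 6.78 and 7.61 on replicates 1 to 6 (SD 1.06, adjusted p = 0.00142), and its SD on slides 2 and 3 was 0.64 (adjusted p = 0.138). Both passed on slide 1 whichever array was left out. Without replicate 4, the SD was 1.56 for Cck (adjusted p = 1.15e-06) and 0.89 for Tmem178a (0.00827).

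Some markers of cortical excitatory neurons were high on the same arrays, and others were not. Neurod6, a transcription factor of such cells, was detected on slide 1 on replicate 4 (6.88) and replicate 1 (6.43), the arrays of highest Cck, and on no other array of the slide. Fezf2 and Bhlhe22, transcription factors as well, were highest there on replicate 4, Satb1 on replicate 3 (7.40, against 7.26 on replicate 4) and Lmo4 on replicate 1. Slc17a7, like Neurod6, was detected on slide 1 on replicates 4 (5.90) and 1 (5.52) alone. Kcnv1 was detected there on replicates 1 and 3, and Camk2a on all but replicate 3. Nrgn stayed between 13.92 and 14.01 on slide 1, where its raw signal ran from 11358 to 26063. The quantile step sets a level by the rank of a probe on its array. Fth1 and Calm2, about as bright, had SDs of 0.23 and 0.26 on slide 1, against 0.05 for Nrgn. On slides 2 and 3 the SD of Nrgn was 0.21. On slide 2, replicate 3 was lowest for Cck, Tmem178a, Neurod6, Fezf2, Bhlhe22, Satb1 and Slc17a7. Of these, Cck and Neurod6 were highest on replicate 1 and the others on replicate 2. On slide 3, replicate 4 was highest and replicate 5 lowest for Cck, Tmem178a, Neurod6, Fezf2, Satb1 and Lmo4. Bhlhe22, in contrast, was lowest on replicate 6 of slide 3, where Nrgn and Slc17a7 were highest. Tmem178a is in no list and was set beside these genes after its values were seen. Over the 6 cortical genes detected on all arrays, of which Cck is 1, the mean deviation from the slide mean was 0.83 on slide 1 replicate 4, 0.30 on replicate 1, -0.50 on replicate 2 and -0.45 on replicate 5. On slides 2 and 3 it ran from -0.45 to 0.47. The summed raw signal of these 6, which include the bright gene Nrgn, was 14760 to 37792 on slide 1, lowest on the dim replicate 4, and 7555 to 16844 on slides 2 and 3. Of the other genes of the list, Camk2a was detected on 11 arrays, Kcnv1 on 7, Neurod6 and Slc17a7 on 6 each, and Neurod1, Neurod2, Rorb and Cplx3 on none. The part of cortical cells in the spread of Cck and Tmem178a was not tested.

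Ttr, which encodes transthyretin, the main secreted protein of the choroid plexus, ranged widely between rats. On slide 1 its raw signal was 583.8, 42.0, 1572, 821.9, 6245 and 9.2 on replicates 1 to 6. Its log2 level was highest on replicate 5 (12.51) and lowest on replicate 6 (4.87), where it was not detected. It therefore stood outside the test on slide 1. With probes detected on at least 3 of 6 arrays it had an SD of 3.01 (adjusted p = 6.52e-10). On slides 2 and 3 it was 10.26, 12.28 and 7.72 on slide 2 and 8.14, 8.63 and 12.36 on slide 3 (SD 2.30, 14.9 times the prior, adjusted p = 4.92e-06), and it passed whichever array was left out. At 24 h the METH arrays gave 6.14 to 12.76 (adjusted p = 0.0169, lost without replicate 4 or 6).

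Igf2, a growth factor, and Igfbp2, its binding protein, followed the same arrays. Igf2 was 11.28 on slide 1 replicate 5 and 9.36 to 9.86 on the other 5 arrays (SD 0.67, adjusted p = 0.0433, lost without replicate 2, 5 or 6 and at 0.9945 without replicate 5). It was highest on slide 2 replicate 2 (10.14) and slide 3 replicate 6 (10.89), with an SD of 0.96 (adjusted p = 0.006, and 0.0881 without replicate 6). Igfbp2 was 8.20 on slide 1 replicate 5, 7.81 on slide 2 replicate 2 and 8.53 on slide 3 replicate 6, and between 5.03 and 6.77 on the other 9 arrays (SD 1.38 on slides 2 and 3, adjusted p = 0.00241, and 0.0881 without replicate 6). It was not detected on slide 1 replicate 6. Enpp2, the secreted enzyme autotaxin of oligodendrocytes and choroid plexus, stands in the oligodendrocyte list and not in the choroid list. It was 12.35 on slide 1 replicate 5 and 10.22 to 11.25 on the others of the slide (SD 0.78, adjusted p = 0.00626, and 0.627 without replicate 5). On slides 2 and 3 it did not pass (SD 0.40, adjusted p = 0.459). All 4 genes were highest on slide 1 replicate 5, slide 2 replicate 2 and slide 3 replicate 6.

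Detection of the choroid plexus and ependyma list also differed by array. Of its 16 genes, 13 were detected on slide 1 replicate 5 and 5 or 6 on each other array of that slide. On slide 2 the count was 9, 10 and 8, and on slide 3 it was 8, 7 and 13. Kl and Otx2 were detected on slide 1 replicate 5, slide 2 replicate 2 and slide 3 replicate 6 alone among saline arrays, Clic6 and Kcne2 on slide 1 replicate 5 and slide 3 replicate 6, Folr1 on slide 3 replicate 6, and Lbp on none. The summed signal of the 3 genes detected on all 12, Igf2, Cd24 and Rarres2, was 835.3 to 3441 on slide 1 and 992 to 1748 on slides 2 and 3. Cd24 and Rarres2 did not follow Igf2. On slide 1 replicate 5, Igf2 deviated from the slide mean by 1.30, Cd24 by -0.07 and Rarres2 by 0.03, and on slide 3 replicate 6 the deviations were 1.18, -0.11 and -0.07. Tmem212 was detected on slide 2 replicates 1 and 3 and not on replicate 2. Slc4a5 was detected on slide 2 replicate 1 and slide 3 replicate 4 alone among saline arrays. Aqp1 was detected on the arrays of Kl and Otx2 and on slide 2 replicate 1. Among METH arrays, 13 of the 16 were detected on 1 array, the METH 24 h rat with the highest Ttr, and 6 or 7 on each of the other 11. The part of choroid tissue in the spread of Ttr, Igf2, Igfbp2 and Enpp2 was not tested.

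**Figure D4:**
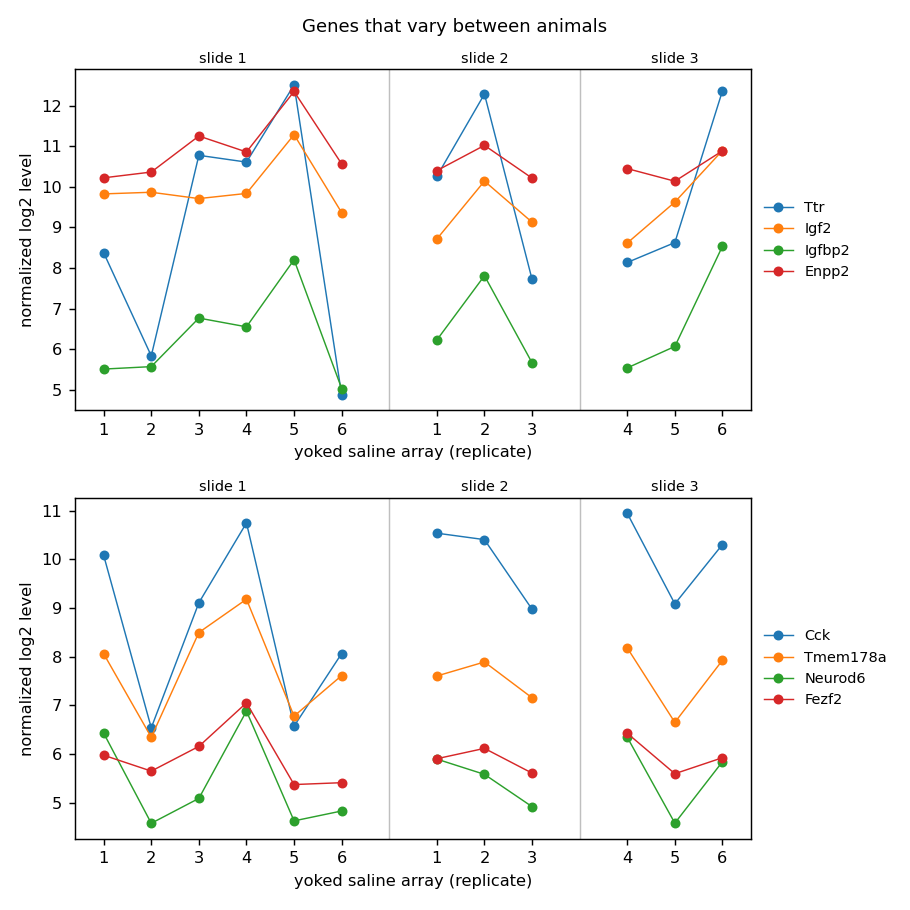
Normalized log2 level on the 12 saline arrays, grouped by slide, of Ttr, Igf2, Igfbp2 and Enpp2 (top) and of Cck, Tmem178a, Neurod6 and Fezf2 (bottom); points are single arrays, and lines join 1 gene within a slide and stand for no order. The top genes peak together on slide 1 replicate 5, slide 2 replicate 2 and slide 3 replicate 6, and the bottom genes on slide 1 replicate 4 and slide 3 replicate 4.

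Sv2b, a synaptic vesicle glycoprotein, passed in both sets. On slides 2 and 3 the arrays fell into separate levels, with 13.70, 14.01 and 13.49 on slide 2 replicates 2 and 3 and slide 3 replicate 5, and 11.16, 11.15 and 11.22 on the other 3 (SD 1.45, adjusted p = 0.000126, called whichever array was left out). On slide 1 it was 14.30 to 14.60 on 4 arrays, 13.58 on replicate 1 and 12.93 on replicate 4 (SD 0.70, adjusted p = 0.0042, and 0.212 without replicate 4). In METH rats it was 14.30 or 14.60 on each array at 2 h and 12.05 to 14.30 at 24 h. Levels of 14.30 and 14.60 are the top values of the quantile scale.

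Rpl30, a protein of the large ribosomal subunit, fell into separate levels on slide 1, with 6.72 and 6.52 on replicates 3 and 5 and 9.50 to 10.11 on the other 4 (SD 1.67, adjusted p = 3.08e-07, called whichever array was left out). On slides 2 and 3 it was 10.77 to 11.71 (SD 0.31). At 2 h the METH arrays gave 6.37 to 10.31 and passed (adjusted p = 0.0211, and 0.0705 without replicate 6). Rps9, a protein of the small subunit, was low by 1 of its probes on slide 1 replicate 3 alone, at 8.07 against 9.99 to 10.65 (adjusted p = 0.00182, and 0.993 without that array). The same probe was 8.79 to 9.23 on slides 2 and 3. At METH 2 h it ran from 7.43 to 11.36 and passed (adjusted p = 0.0211, and 0.98 without replicate 6). Another Rps9 probe had an SD of 1.80 on slide 1, where it stood outside the test, and 0.24 on slides 2 and 3. It passed at METH 24 h (SD 1.64, adjusted p = 0.032). The median SD of the 55 genes of the ribosomal list was 0.21 and 0.13, below the median of all genes in both sets.

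Other genes called on slide 1 were Pafah1b1, a dynein regulator (5.85 to 8.22, adjusted p = 0.00872), Klf5, a transcription factor (6.21 to 8.49, adjusted p = 0.0111), and Plekhh1 and Bcat1 (each adjusted p = 0.0267). Each lost its call without at least 1 array (Pafah1b1 without replicate 1, Klf5 without replicate 2 or 4). On slides 2 and 3 Sorbs2, an adaptor of actin and adhesion, was 5.94 on slide 3 replicate 5 and 8.13 to 9.65 elsewhere (SD 1.27, adjusted p = 0.00166, and 0.0667 without that array). Mbp, the myelin basic protein gene, was 10.28 to 10.71 on slide 2 replicates 1 and 3 and slide 3 replicate 4 and 11.86 to 12.27 on the other 3 (SD 0.87, adjusted p = 0.00649, called whichever array was left out). The median SD of the 13 oligodendrocyte genes there was 0.20. Rnf115 (8.06 on slide 2 replicate 1 and 7.82 on slide 3 replicate 4 against 6.03 to 6.44, adjusted p = 0.0198), Mrpl18 (8.04 on slide 3 replicate 4 against 5.63 to 6.30, adjusted p = 0.0212) and Spock2 (9.50 to 10.91, adjusted p = 0.0318) passed as well. Sncg, the synuclein gene (SD 0.89, adjusted p = 0.0369), and Ube2b, a ubiquitin-conjugating enzyme gene (SD 0.82, adjusted p = 0.0409), passed narrowly, and both lost the call without 1 or another of several arrays. Mrpl18 had an adjusted p of 0.96 without slide 3 replicate 4, and Rnf115 of 0.108 without slide 2 replicate 1.

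Akr1c12, an aldo-keto reductase, was 7.64, 9.19 and 8.23 on slide 2 and 7.77, 9.60 and 9.99 on slide 3 (SD 1.00, adjusted p = 0.006, called whichever array was left out), and it passed at 2 h in METH rats (adjusted p = 0.0416, lost without replicate 2, 5 or 6). Gabbr1, a GABA-B receptor subunit, Nrep, a neuronal regeneration protein, and Tsn, the RNA-binding protein translin, shared much of its order of arrays, a pattern singled out after their values were seen. Among saline arrays all 4 were lowest on replicate 3 of slide 1, highest on replicate 2 of slide 2, and in the falling order replicate 6, 5, 4 on slide 3. Among METH arrays all 4 were lowest at 2 h on replicate 6 and, of the 3 arrays at 24 h on slide 2, lowest on replicate 3. Gabbr1, for example, was 7.55 on slide 1 replicate 3 and 8.39 to 9.11 on the other 5 arrays.

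The cell type lists moved by array to different degrees. The means of the projection neuron (25 genes), astrocyte (16), direct (6) and indirect pathway (3) lists stayed within 0.17 of the slide mean on every saline array. A list mean evens out the spread of single genes, and the lists differ in size. The median SD of the 25 projection neuron genes was 0.26 on slide 1 and 0.21 on slides 2 and 3, above the 0.23 and 0.16 of all genes. On slides 2 and 3, 5 of the 25 lay over the 95th percentile of SD of all genes, and 1 did on slide 1. Oligodendrocyte genes were lowest on slide 1 replicate 1 (mean deviation -0.62, 13 genes) and highest on slide 2 replicate 2 (0.31). Blood genes ran from -0.52 to 0.60 on slide 1 and from -0.53 on slide 3 replicate 4 to 0.71 on slide 3 replicate 6. The SD of Hba-a1 was 0.47 on slide 1 and 0.56 on slides 2 and 3 (adjusted p = 0.329 and 0.0853, not past the threshold).

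**Figure D5:**
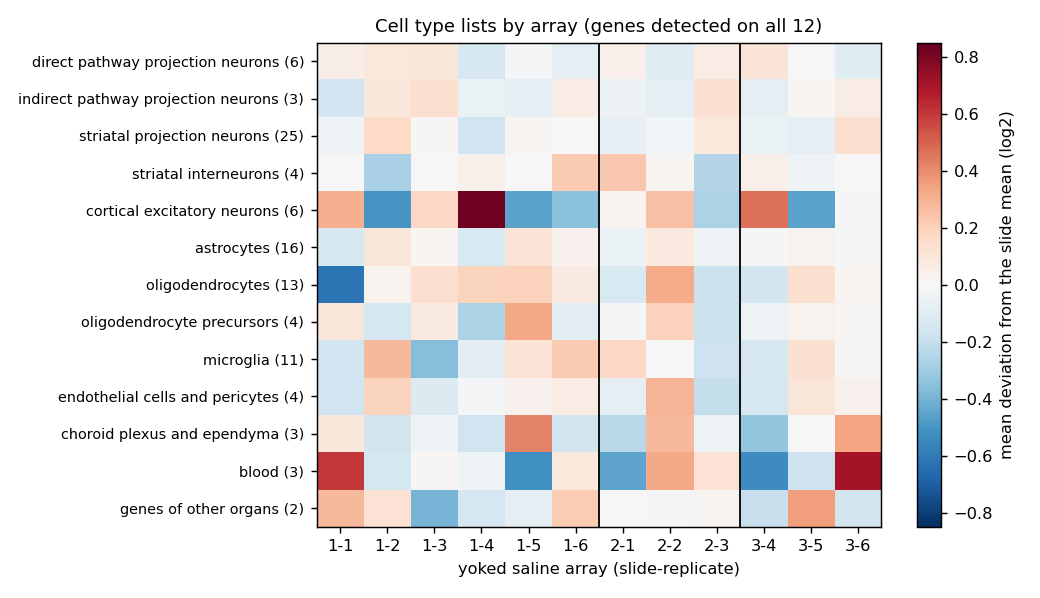
Mean deviation from the slide mean (log2, colour) of the genes of each cell type list on the 12 saline arrays, named by slide and replicate; the number of genes detected on all 12 stands beside each name. The cortical list reaches 0.83 on slide 1 replicate 4 and the blood list 0.71 on slide 3 replicate 6, and the projection neuron and astrocyte lists stay pale.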

How the data were processed

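Dorsal striatum RNA of 24 rats was read on RatRef-12 arrays. Per the file headers, the deposited table holds raw intensity per probe, not normalized, and its values were already background-subtracted, by steps not given in the sources used here. The authors' detection score, called a p-value in the header, stood in another probe order, so sorted scores were assigned to sorted intensities and p taken as 1 minus the score. The authors also deposited log2 values, centred on probe medians, used as an alternative. Signals were normalized over all 24 arrays in R 4.3.3 with limma 3.58.1 (neqc, offset 16, quantile). Ranks used raw intensity, each slide's order being the median rank of its saline arrays. Symbols came from the platform annotation and were updated through RefSeq (GRCr8): 13793 probes have 1 symbol, 0 several and 8730 none. A gene is its brightest probe. The spread test set each probe's residual variance, with slide as a term on slides 2 and 3, against limma's robust level-trended prior (upper-tail F test, Benjamini-Hochberg 0.05) over probes detected on every array of a group, and was tested on simulated data. Alternatives changed the normalization, the values, the filter, the prior, array weights, list size and single arrays. Genes were named by rule: the 20 brightest, the 5 markers, the 20 most and 10 least variable, up to 10 called per set, reference genes and the brightest of each list. The members and lists were chosen with earlier results of these data known. The quantile step sets levels by rank, so a probe of constant rank gets equal levels, as Pcp4 did on slides 2 and 3 (SD 0).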

Additional observations from a re-analysis of the deposited data

Results flagged for a closer look

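Of 109 sets of 6 saline arrays, 10 held 1 array whose gap to its nearest neighbour, as a share of the set's range, was past Dixon's critical value. Chance flags about 1 set in 20 of genes taken at random. Many of these genes were named for a large spread, and the sets of slides 2 and 3 hold both slides, so that share is no measure here. On slide 1, replicate 4 was the low array for Penk (12.01, next 12.38) and Ppp3ca (13.36, next 13.53) and the high array for Bhlhe22, a transcription factor of cortical neurons (7.13, next 6.01). It is also the dimmest array of the 12. Replicate 5 was high for Igf2 (11.28, next 9.86), replicate 6 for the DNA methyltransferase gene Dnmt3a (7.35, next 6.35), and replicate 3 was low for Nrep (6.36, next 7.52) and Rps9 (8.07, next 9.99). Among the 6 saline arrays of slides 2 and 3, slide 3 replicate 5 was high for Drd2 (8.69, next 8.32) and Pafah1b1 (7.93, next 7.70), and slide 3 replicate 4 for Mrpl18 (8.04, next 6.30).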

How the results depend on the processing

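The 74 shared brightest genes became 35 of 50 and 168 of 200 with other list sizes, and the 27 shared variable genes became 12 of 50, 44 of 200 and 11 by the coefficient of variation of the raw signal. With probes detected on at least 3 of 6 arrays, 37 probes passed on slide 1, 33 on slides 2 and 3 and 7 at METH 2 h. With a prior that is not robust, 8, 8 and 1 passed. Array weights gave 33 on slide 1 and 8 at METH 2 h, and median scaling gave 7 at METH 2 h. Leaving out each array in turn gave 13 to 26 on slide 1 (lowest without replicate 2), 9 to 22 on slides 2 and 3 (9 without replicate 6, 13 without replicate 5), 0 to 7 at METH 2 h (limma: 0 without replicate 6, with 390 of 7722 probes at an unadjusted p under 0.05; 7 without replicate 1 or 4) and 1 to 5 at METH 24 h (1 without replicate 4, 2 without replicate 6). Of 97 settings of the counts, 75 stayed within 1.5 times, and 215 of 240 settings of single genes kept the call. These single genes were the named calls of lowest p in each saline set, so that share does not cover the weaker calls. Among the weaker named calls of slide 1, Dynlt3 kept the call in 5 of 6 single-array removals, Igf2 in 3 and Olfm1 in 2. Among those of slides 2 and 3, Spock2 and Sncg kept it in 3 of 6, and Ube2b, Aox1 and Dlgap4 in 2. Why the counts moved was not tested. No paired analysis was possible because the labels carry no replicate numbers. Signal over background limits what can be said of dim genes, and slide and saline set cannot be told apart.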

Other observations

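RT1-A1 and RT1-A2 are class I genes of the major histocompatibility complex, which present peptides to immune cells and have close copies. The probe of RT1-A1, detected on 7 of the 12 saline arrays, fell into separate levels, with 4.79 to 5.16 (log2) on 6 of the 12 arrays and 6.78 to 7.84 on the other 6, and with both levels on each of the 3 slides. It was singled out after its values were seen. RT1-A2 was among the 20 genes of largest smaller SD (0.53 on slide 1 and 0.57 on slides 2 and 3), while B2m, the shared light chain, had an SD of 0.26 and 0.09. Neither RT1-A2 nor B2m passed the spread test (adjusted p = 0.589 and 0.257 for RT1-A2).

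Sgk1, a kinase gene that glucocorticoids raise, was 10.41 on slide 1 replicate 1 and 11.39 to 12.02 on the other 5 arrays of the slide (SD 0.57), and 9.69 to 11.19 on slides 2 and 3 (SD 0.57). It did not pass the test (adjusted p = 0.084 and 0.108). Of the arrays of slide 1, replicate 1 also had the lowest mean of the 10 glucocorticoid-responsive genes (deviation -0.43) and of the oligodendrocyte genes. The 6 clock genes detected on all 12 arrays had a median SD of 0.18 and 0.17, against 0.23 and 0.16 over all genes.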
